A study of Mus musculus with 6 samples.

Results

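The islets of ZT0, when the lights came on, were compared with those of ZT8, late in the light phase, on 1 array each. These are 2 of the 6 arrays of a series that sampled mouse pancreatic islets every 4 h around the day, from ZT0 to ZT20 (ZT is zeitgeber time, in hours after lights on). They were chosen by their titles, and as the pools of intermediate lymphoid content in the series. All the mice were male C57BL6, aged 8 weeks, fed rodent chow and kept in cycles of 12 h light and 12 h dark, with lights off at ZT12, so that genotype, sex, age and diet were shared by both groups. Islets were freed by collagenase, and for each time point total RNA of 3 to 5 mice was pooled, labelled with Cy3 and put on 1 Agilent array. The labels give no other count of mice per pool, and each pool gives a single value per probe with no spread between animals. No test between the time points was possible, and every difference is a size with no p-value and no replicate check.

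Islets are small clusters of endocrine cells in which beta cells release insulin and alpha cells glucagon. Like most cells they hold a circadian clock, in which the proteins CLOCK and BMAL1 switch on the Per, Cry and Nr1d genes from E-boxes, the PER and CRY proteins then hold CLOCK and BMAL1 back, and REV-ERB proteins, made from Nr1d1 and Nr1d2, repress Arntl, the gene of BMAL1. DBP, TEF and HLF, which bind D-boxes, pass the rhythm on to output genes, and NFIL3 competes with them for the same sites.

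Levels are log2 signals set relative to the 75th percentile of the array they come from, so that 0 is this percentile and 1 unit is a 2-fold step. A gene was kept when its probe was detected (flagged as well above background) at ZT0, at ZT8 or at both and was not lost to outlier spots, and genes 2-fold apart were counted. Of 27323 genes kept, 18284 had a symbol, and 24009 were detected on both arrays, 2337 on ZT0 alone and 977 on ZT8 alone. The 75th percentile of the signal was 2131 on the ZT0 array and 2181 on the ZT8 array, and 84.4% and 80.3% of the spots were well above background. The arrays differed in spot quality. ZT0 had 1743 outlier spots against 217 on ZT8, 1576 of them for uneven pixels, and the median SD of log2 signal over the spots of a replicated probe was 0.0877 on ZT0 and 0.0538 on ZT8. The ZT0 array was scanned by itself, 6 days after the other 5, whereas the ZT8 array shared a scan with 3 others. Time point and scan cannot be told apart.

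The pools still held the tissue named in the labels, together with other tissue. The insulin genes Ins1 and Ins2 had levels of 7.46 and 7.02 at ZT0 and 6.99 and 7.23 at ZT8, and were detected on both arrays. The enzymes of acinar cells, the exocrine cells that surround islets, were also bright, with a median level of 7.40 at ZT0 and 6.15 at ZT8 over 20 markers. Over 19 pan-lymphocyte markers the median level was 2.56 at ZT0 and 3.25 at ZT8. It was 5.21 at ZT4 and 4.89 at ZT12 and -0.88 at ZT16 and -0.56 at ZT20. The middle position of ZT0 and ZT8 is part of how the pair was chosen. In bulk RNA, fewer cells of a type and less RNA per cell cannot be told apart.

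Across all genes kept, 5747 were at least 2-fold higher at ZT0 (21.0%) and 4940 at least 2-fold higher at ZT8 (18.1%), or 39.1% in either direction. Genes detected on 1 array alone have only a bound on the other, so the same counts were made over the 24009 genes detected on both. There, 4273 genes (17.8%) were higher at ZT0 and 3978 (16.6%) at ZT8. Differences of at least 8-fold were found in 329 genes (1.37%) higher at ZT0 and 125 (0.521%) higher at ZT8. The median difference over all genes kept was 0.15, and Pearson's r between the 2 arrays was 0.93 across genes, which are not independent replicates. These shares are the background against which each gene group has to be read.

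The clock genes came first, since the series follows islets around the day. Of 24 genes kept, 18 repressors and outputs and 6 activators, 6 were at least 2-fold higher at ZT0 and 2 at ZT8, beside 21.0% and 18.1% of all genes. Bhlhe41, Per3, Hlf, Clock, Cry2 and Csnk1e were the 6 that were higher at ZT0, and Nr1d1 and Per2 were the 2 that were higher at ZT8. The 6 activators had a median difference of 0.18 and the 18 repressors and outputs one of 0.29, beside 0.15 for all genes. With a scaling that depends on signal (loess), 1 activator and 3 repressors and outputs stayed 2-fold higher at ZT0 and 1 was higher at ZT8, and the median of the repressors and outputs was -0.02.

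The clock genes with the largest differences among those with a RefSeq promoter are shown with the 250 bases before their start, on assembly GRCm38.p6, read 5′ to 3′ on the strand of the gene. Capitals mark an E-box (CACGTG), the site of CLOCK and BMAL1, or a D-box (TTATGTAA or TTACGTAA, both strands), the site of DBP, TEF, HLF and NFIL3. The Bhlhe41 window lies at chr6:145865421-145865670 on the minus strand and the Per3 window at chr4:151044666-151044915 on the minus strand, each upstream of the transcript.
Bhlhe41: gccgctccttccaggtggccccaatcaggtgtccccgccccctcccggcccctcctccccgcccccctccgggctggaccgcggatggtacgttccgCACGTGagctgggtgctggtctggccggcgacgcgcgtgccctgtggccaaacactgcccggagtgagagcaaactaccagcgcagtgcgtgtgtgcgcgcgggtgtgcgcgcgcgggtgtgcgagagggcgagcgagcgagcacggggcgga
Per3: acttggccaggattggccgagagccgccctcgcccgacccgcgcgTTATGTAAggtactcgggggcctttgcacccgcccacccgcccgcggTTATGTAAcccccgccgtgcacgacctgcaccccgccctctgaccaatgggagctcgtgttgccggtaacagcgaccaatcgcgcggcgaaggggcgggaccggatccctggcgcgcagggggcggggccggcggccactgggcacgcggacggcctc

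The E-box of Bhlhe41 begins 153 bases before the start, and the D-boxes of Per3 begin 205 and 158 bases before it. Among 32851 promoter windows of this length in RefSeq, 6.02% held an E-box and 0.931% a D-box by these letters. Counted by gene, with a match in any of its windows, the shares were 6.86% and 1.1% of 27025 genes. The clock genes are counted by gene as well. Of the 19 clock genes with a window, 5 had an E-box, namely Bhlhe41, Per1, Cry1, Tef and Ciart, and 2 had a D-box, Per3 and Timeless. The genes with an E-box did not share a direction: the ZT0 minus ZT8 difference was 2.77 for Bhlhe41, 0.46 for Ciart, 0.19 for Per1, 0.12 for Tef and -0.54 for Cry1. After loess those of Per1 and Tef were -0.18 and -0.40. The genes with a D-box differed as well, by 1.86 for Per3 and -0.39 for Timeless. These matches describe letters in the window only.

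Bhlhe41, a repressor that competes at E-boxes, had a level of -1.87 at ZT0 and -4.64 at ZT8, a 6.81-fold difference, and its other probe was not detected at ZT8. The other 4 arrays did not detect it. Per3, a member of the period family, was at -3.22 at ZT0 and -5.08 at ZT8, 3.63-fold apart, and among the others it was detected at ZT16 alone, at -4.52. Hlf, an output activator, was at -0.71 at ZT0 and -2.09 at ZT8, 2.59-fold apart, beside -3.48 (ZT4), -2.20 (ZT12), -2.33 (ZT16) and -2.39 (ZT20), so ZT0 stood by itself and the other arrays from ZT8 on lay close together. For Bhlhe41, Per3 and Hlf alike, ZT0 was the highest of the 6 arrays.

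Nr1d1 was higher late in the light phase, with a level of -3.17 at ZT0 and -1.71 at ZT8, beside -3.24 (ZT4) and -3.43 (ZT12), and it was undetected on the ZT16 and ZT20 arrays. It was 2.76-fold higher at ZT8 than at ZT0, and ZT8 was its highest array. Nr1d2, which encodes the related repressor, went the other way with 2.01 at ZT0 and 1.07 at ZT8, a 1.91-fold difference. Per2, a repressor of CLOCK and BMAL1, was at -1.48 at ZT0 and -0.39 at ZT8, 2.13-fold higher at ZT8 (-0.99 in log2 after loess), and it was higher than at ZT8 on the ZT16 and ZT20 arrays. Per1 and Cry1, from the same repressor arm, were 1.14-fold and 1.45-fold apart.

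Clock was 2.72-fold higher at ZT0, at 1.29 against -0.16 at ZT8. Its partner Arntl was at -0.51 and -0.82, which is 1.24-fold apart, so the genes of both partners did not differ alike. Cry2, at 3.72 and 2.63, was 2.13-fold higher at ZT0, but the difference was 0.69 after loess scaling and 0.72 after quantile normalization, under 2-fold in both. Csnk1e, a kinase that marks PER proteins for removal, was 2.13-fold higher at ZT0 on its brighter probe, by 0.93 in log2 after loess, while its other probe differed by -0.55. The D-box factors Dbp and Tef differed by 0.07 and 0.12 on this scale and by -0.49 and -0.40 after loess, so their direction turned with the scaling, and the second probe of Dbp differed by -0.82.

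**Figure D1:**
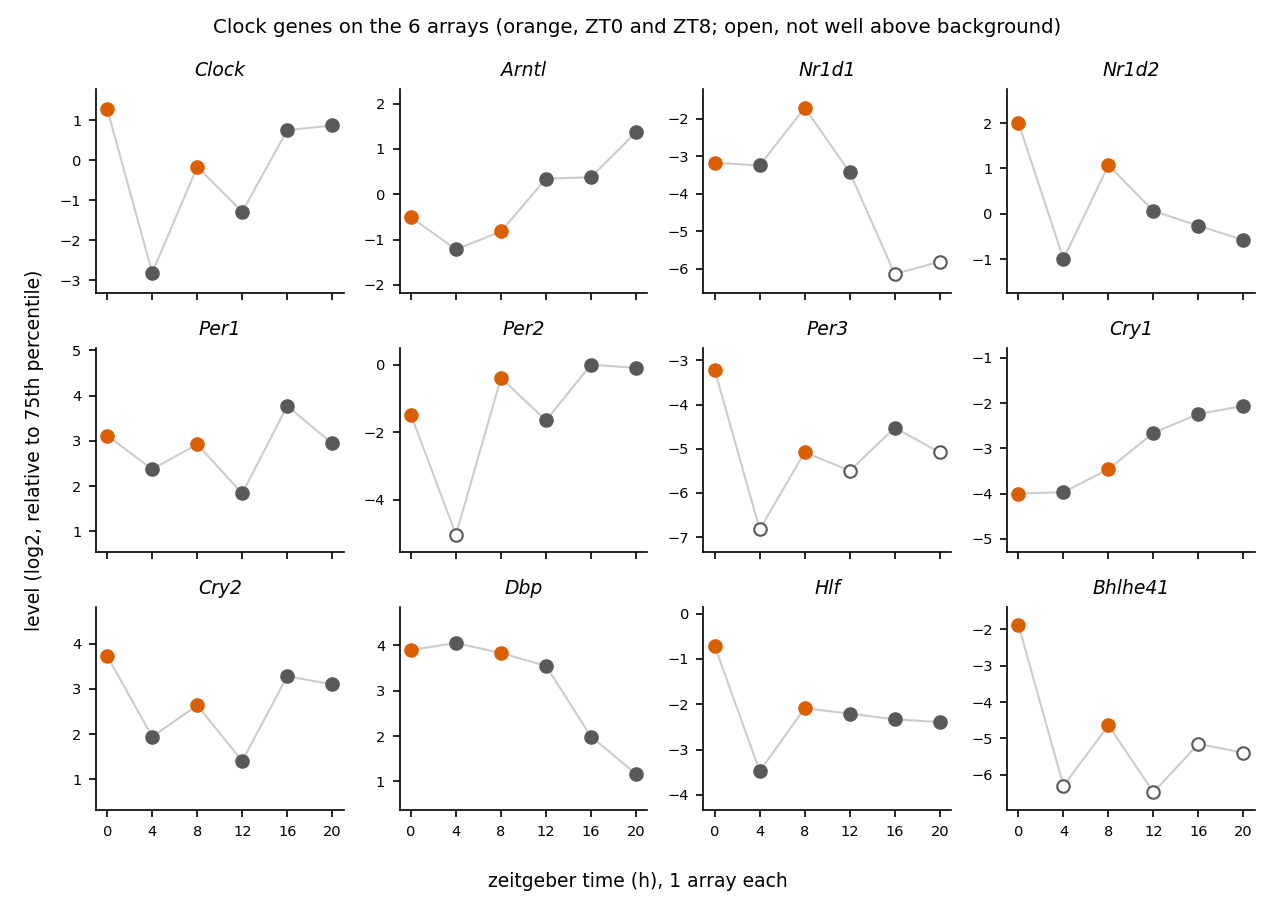
Levels of 12 of the 24 clock genes on the 6 arrays (log2, relative to the 75th percentile of each array; vertical ranges differ between panels) against zeitgeber time in hours, 1 array per point. Orange points are ZT0 and ZT8, open points are not well above background, and grey lines join the points. Bhlhe41, Per3 and Hlf have their highest point at ZT0, and Nr1d1 at ZT8.

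The sizes were set against other probes of the same gene. For 3816 genes, at least 2 probes were detected on both arrays, and the ZT0 minus ZT8 difference of the brightest probe was set against that of the next one. Pearson's r between them was 0.146 across genes, which is not a test. Over all 15 pairs of arrays, which share arrays with one another, this r ran from 0.146 to 0.656, and that of ZT0 with ZT8 was the lowest. The SD of the brighter probe's difference was 1.05 here and ran from 0.564 to 1.63 over the other pairs. For ZT8 with ZT12 it was 1.05 as well, with an r of 0.538.

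Of 1113 genes that the brighter probe placed at least 2-fold apart, the next probe had the same sign in 613 (55.1%) and was itself 2-fold apart in that direction in 273 (24.5%). Over the other 14 pairs of arrays these shares ran from 64.6% to 84.8% and from 28.0% to 59.2%. The directions were unequal: the next probe was 2-fold apart in the same direction in 132 of 769 genes higher at ZT0 (17.2%) and in 141 of 344 lower at ZT0 (41.0%). Beside these stand 2703 genes whose brighter probe was under 2-fold apart, where the next probe had a median of -0.36 and was 2-fold higher at ZT0 in 8.47% and 2-fold lower in 26.6%. All probes of a gene were at least 2-fold higher at ZT0 in 101 of the 3816 genes (2.65%) and at ZT8 in 137 (3.59%). Among the largest differences, in 69 genes the brighter probe was at least 8-fold higher at ZT0, with a median of 3.80, while the next probe had a median of 0.08, and it was at least 2-fold higher in 9 and at least 2-fold lower in 17. The brighter probe was picked by its mean level on the same 2 arrays, so a high signal at ZT0 favours its choice. The next probe is mostly dimmer, and no loess was applied here. Over genes detected on both arrays, the median difference was -0.47 in the lowest decile of mean level and 0.70 in the top one. The unequal directions cannot be told apart from these effects. Probes of 1 gene can read different transcripts, and whether they do so here was not tested.

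**Figure D2:**
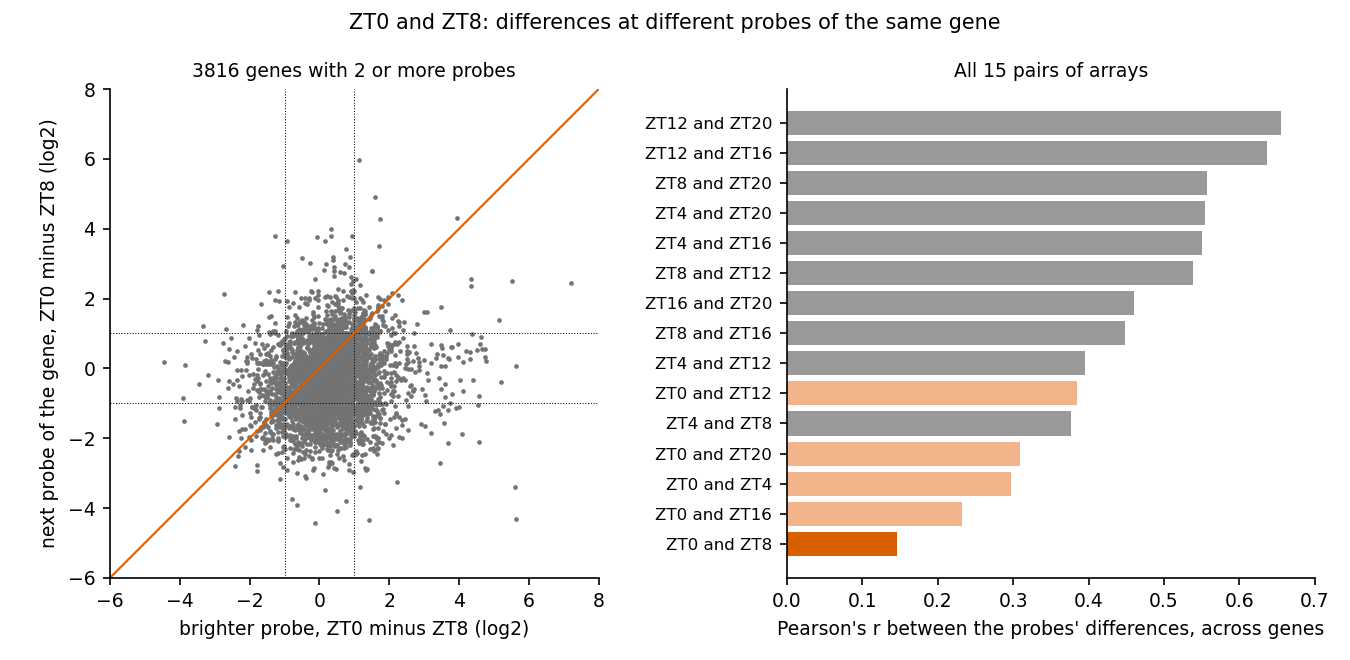
Left, the ZT0 minus ZT8 difference (log2) of the next probe against that of the brightest probe for 3816 genes, with the line of equality in orange and 2-fold limits dotted. Right, Pearson's r between such probe differences for all 15 pairs of arrays (dark orange, ZT0 and ZT8; light orange, other pairs with ZT0). The points do not follow the line, and the bar of ZT0 and ZT8, at 0.146, is the shortest.

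The genes furthest apart were higher at ZT0. Pex6, a peroxisome assembly ATPase, had a level of 6.56 at ZT0 and -2.26 at ZT8, a 452-fold difference, beside -3.02 (ZT4), -3.44 (ZT12), -2.59 (ZT16) and -2.53 (ZT20), so that ZT0 alone was high. Nhlh1, a neuronal transcription factor, was at 5.08 at ZT0 and between -2.58 and -2.13 on the others, and its second probe differed by 2.43 where the first differed by 7.21. Smoc1, a matrix protein, and Wnt3, a signalling ligand, were 147-fold and 110-fold higher at ZT0. Gm17359, Golt1a, Szrd1, Hs2st1, Cd300a and Abca6 followed with 102-fold to 63.7-fold. The last 6, like Pex6, Smoc1 and Wnt3, have 1 probe each, so no other probe bears on them.

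Among 18881 genes detected on all 6 arrays, 243 were at least 8-fold higher at ZT0 than at ZT8. ZT0 was the highest of the 6 arrays in 242 of these and ZT8 the lowest in 15. Their median level was 5.56 at ZT0 and between -0.09 and 0.55 on the other 5, ZT8 included. Genes chosen by this pair tend to be extreme on 1 of its 2 arrays, so these counts are no test. In the other direction 110 genes were at least 8-fold higher at ZT8, and ZT0 was the lowest array in 105 of them, whereas ZT8 was the highest in 9 and ZT16 in 62. Over all 18881 genes, ZT0 was at least 2-fold above every other array in 1091 and below every other in 1047. The same counts for ZT8 were 45 and 1, and they were not made for the other 4 arrays. By any margin, ZT0 was the highest array in 4450 of the 18881 genes and the lowest in 4209. ZT4 had 4938 and 3617 and ZT12 3166 and 4074, so being the highest or lowest array was not particular to ZT0. In these genes a difference of 8-fold or more was mostly one between ZT0 and all the other arrays.

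The genes that were furthest above ZT0 at ZT8 had their lowest value on the ZT0 array. H2-M5, a non-classical MHC gene, was at -6.29 at ZT0 and -1.33 at ZT8, which is 31.1-fold higher at ZT8, beside -0.16 (ZT4), -1.83 (ZT12), -0.52 (ZT16) and 1.45 (ZT20). The olfactory receptor genes Olfr128 and Olfr611 were 22.1-fold and 21.9-fold higher at ZT8. Ceacam9, Cstl1, Gnl3l, Clpsl2 and Mrgprf lay between 18.4-fold and 19.9-fold. Tfpt differed by -4.47 on its brighter probe and by 0.17 on the other.

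Genes detected on 1 of the 2 arrays have only a bound. For Mrgpra4, a sensory neuron receptor, this holds for 1 probe only, at least 46.6-fold higher at ZT0, since its other probe was detected on both arrays and differed by 0.21. Aox4, Ccdc73 and Vgll2 were at least 24.4-fold, 22.0-fold and 17.3-fold higher. On the probes used, none of the other 5 arrays detected these 4 genes. Higher at ZT8 were Olfr727, Rhox6, Fbxo40 and the vomeronasal receptor gene Vmn1r232, by at least 22.4-fold, 20.5-fold, 15.9-fold and 13.6-fold. Olfr727 and Vmn1r232 were detected at ZT8 alone.

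**Figure D3:**
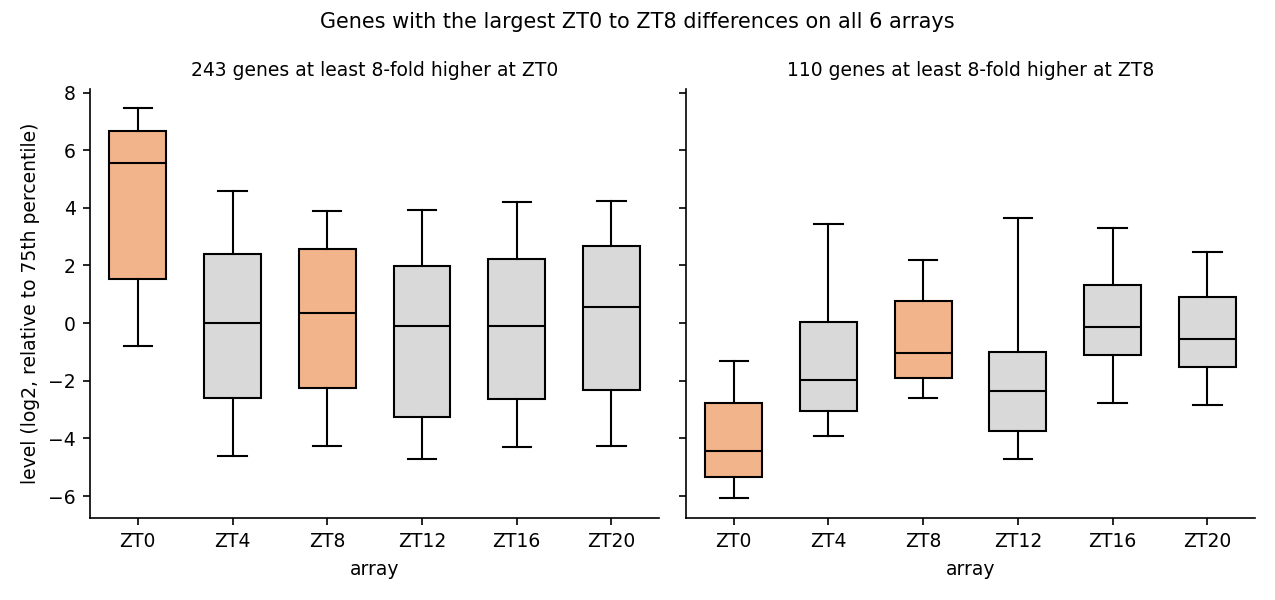
Levels on each of the 6 arrays (log2, relative to the 75th percentile) of the 243 genes at least 8-fold higher at ZT0 (left) and the 110 genes at least 8-fold higher at ZT8 (right), among genes detected on all 6 arrays. Boxes give the quartiles with the median, whiskers the 5th to 95th percentile of genes, and orange marks ZT0 and ZT8. On the left the ZT0 median is 5.56 and the others lie between -0.09 and 0.55. On the right the ZT0 median is -4.43.

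Some genes did keep their difference on each of their probes. Mef2a, a transcription factor of muscle and neurons, differed by 5.52 and 2.51 on its probes, at 4.62 at ZT0 and -0.90 at ZT8. Atp5l, a subunit of ATP synthase, was higher on all 4 of its probes, by 1.96 to 3.30. Gcm1, a placental transcription factor, was higher on 3 probes by 2.09 to 2.69, and its level of 3.22 at ZT0 was matched by 3.27 at ZT4. Gsn, which encodes the actin-severing protein gelsolin, differed by 1.85 and 1.95, and by 0.90 after loess. Others of this kind were Olfr616, Ms4a5, Foxl2os and Tbx20, with smallest probe differences of 1.77 to 2.56.

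In the other direction, Nudc, a dynein-associated chaperone, was at -1.03 at ZT0 and 1.38 at ZT8 and between 0.15 and 1.21 on the other arrays, and its probes differed by -2.41 and -2.79. Rexo2, a mitochondrial RNA exonuclease, was at -0.66 at ZT0 and 1.69 at ZT8, and between 1.83 and 2.15 elsewhere. Hmox2, the constitutive haem oxygenase, was at 0.59 at ZT0 and 2.54 at ZT8, against 2.64 to 3.48 elsewhere. In these 3 genes ZT0 was the lowest array and ZT8 did not stand apart. Arsb, Rps6kb2, Cwc22, Slc36a3, Ccdc77 and Vps13c were lower at ZT0 on both probes, by 1.82 to 2.60 on the brighter one. Tbata, at -2.03 and -1.98 on its probes, turned to 1.68 when outlier spots were kept and to 1.82 in the authors' value table.

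The difference between the arrays depended on how bright a gene was. In the lowest decile of genes by mean level the median difference was -0.47, and in the top decile it was 0.70, where 37.2% of genes were at least 2-fold higher at ZT0 and 5.66% at ZT8. The highest probe lay 8.67 above the 75th percentile on ZT0 and 7.23 on ZT8, so the bright end was wider on the ZT0 array. Gene groups of bright probes were therefore compared under both scalings, the 75th percentile and the signal-dependent one.

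**Figure D4:**
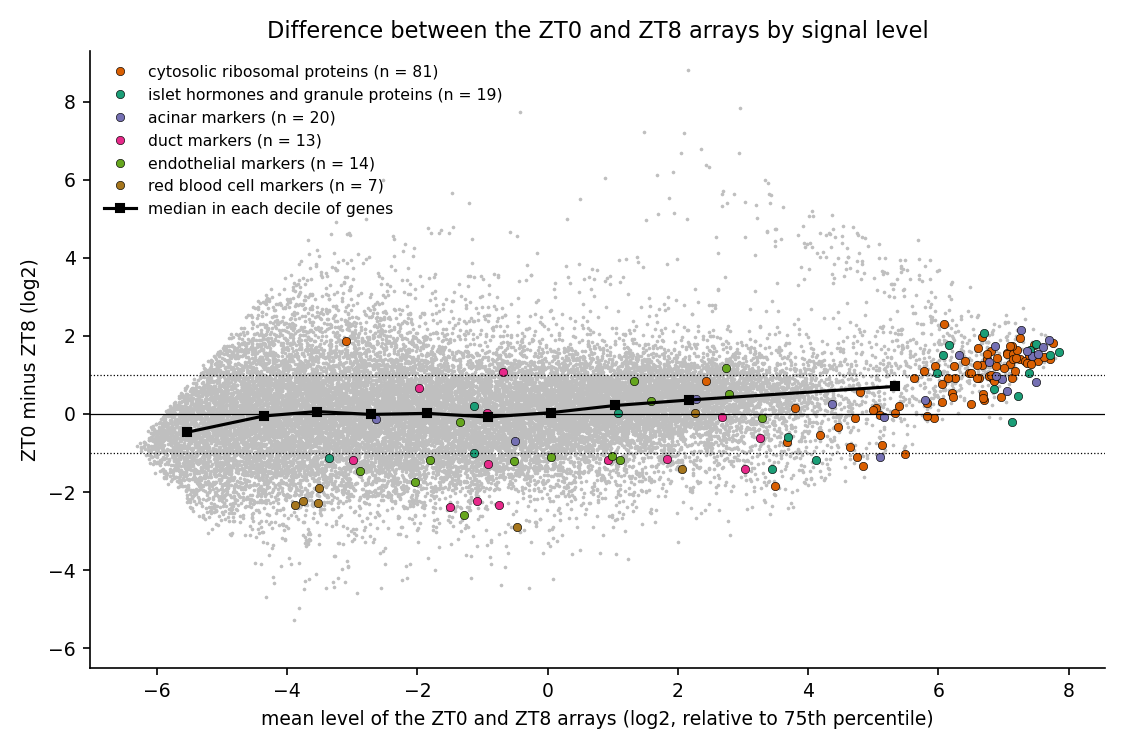
ZT0 minus ZT8 difference (log2) against the mean level of the 2 arrays (log2, relative to the 75th percentile), 1 grey point per gene detected on both, with 6 gene lists in colour. Black squares are the median in each decile of genes, drawn at the middle of its range of levels, and dotted lines are 2-fold. Ribosomal, hormone and acinar genes lie at the bright end, where the median difference is 0.70, and the medians of duct, endothelial and red blood cell markers, -1.18, -1.07 and -2.23, lie below 0.

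Over all genes kept, loess left 19.9% of genes at least 2-fold higher at ZT0 and 17.2% at ZT8. The groups made of bright probes were higher at ZT0 with the 75th percentile and lost this with loess. Cytosolic ribosomal protein genes had a median difference of 1.01 over 82 genes, with 41 at least 2-fold higher at ZT0 and 5 at ZT8, but -0.09 after loess and -0.29 after quantile normalization, so the direction turned. Of these genes 49 had several probes detected on both arrays, and their probes shared a sign in 22. Over all 3816 genes with several such probes this was so in 1824 (47.8%), so the ribosomal genes did not stand apart in sharing a sign. All probes were at least 2-fold higher at ZT0 in 6 of the 49 and at ZT8 in 2. Over the 3816 genes these counts were 101 (2.65%) and 137 (3.59%), all with the 75th percentile scaling. Reference genes such as B2m, used as constant standards, went from 1.02 to 0.22 over 14 genes, 7 of them 2-fold higher at ZT0 at first and 2 after loess. Acinar markers went from 0.93 to 0.03 over 20 genes, with 9 and then 0 at least 2-fold higher at ZT0. Signal of these gene families can be shared between near-identical copies, pseudogenes included.

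Islet hormones and granule proteins went from 0.65 to -0.11 over 19 genes. Before loess, 9 were at least 2-fold higher at ZT0 and 3 at ZT8, and after it 0 and 5. Chgb, a granule protein, had a level of 7.74 at ZT0 and 5.66 at ZT8, 4.24-fold apart, and a difference of 0.91 after loess. Iapp, the amyloid peptide released with insulin, was 2.99-fold higher at ZT0 and differed by 0.15 after loess. Ins2, at 7.02 and 7.23, differed by -0.21 and then by -1.48. The hormones of the pancreatic polypeptide cells were lower at ZT0 under both scalings. Ppy was at 3.53 at ZT0 and 4.71 at ZT8, beside 1.93 (ZT4), 1.18 (ZT12), 6.86 (ZT16) and 6.34 (ZT20). Its relative Pyy was at 2.73 at ZT0 and 4.15 at ZT8, beside 2.62 (ZT4), 0.94 (ZT12), 6.45 (ZT16) and 6.13 (ZT20). They were 2.26-fold and 2.67-fold higher at ZT8 than at ZT0, and both were higher still at ZT16 and ZT20, so that ZT0 and ZT8 lay inside the range of the series.

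Islet transcription factors had a median of 0.45, and of 0.43 after loess, over 18 genes. Of these, 7 were at least 2-fold higher at ZT0 and 2 at ZT8, and after loess 3 and 2. Foxa1, a pioneer factor, was at -1.17 at ZT0 and -2.91 at ZT8, 3.33-fold apart, and Isl1, an early endocrine factor, at 3.03 and 1.54, 2.82-fold apart. Pdx1, which switches on the insulin gene, was at -1.63 and -0.77, 1.82-fold higher at ZT8. Pax6, another endocrine factor, differed by -1.91 on its brighter probe, and its other probe was not detected at ZT8. Pax4 was detected at ZT8 alone, at least 7.65-fold higher.

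Genes of glucose sensing and excitability had a median of -0.50 over 15 genes, and -0.47 after loess, with 3 at least 2-fold higher at ZT0 and 5 at ZT8, and after loess 1 and 4. G6pc2, a glucose-6-phosphatase of beta cells, was at 7.28 at ZT0 and 5.01 at ZT8, and its 4.82-fold difference was 1.22 in log2 after loess. Slc30a8, the zinc transporter of insulin granules, was 3.45-fold higher at ZT0, but the difference was 0.77 after loess, under 2-fold. Glp1r, the receptor of the incretin GLP-1, was at -4.15 at ZT0 and -2.16 at ZT8, and both of its probes were lower at ZT0, by 1.63 and 1.99. The channel subunits of the ATP-sensitive potassium channel went in opposite directions, each by at least 2-fold on both of its probes: Abcc8 was higher at ZT0, by 1.25 on its brighter probe, and Kcnj11 lower, by 1.21. After loess, Abcc8 differed by 0.25 and Kcnj11 by -1.13.

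Markers of duct, endothelial and red blood cells were lower at ZT0 with nearly the same size under both scalings. Loess removes only a trend with level, and in deciles 2 to 7 of mean level the median difference was between -0.08 and 0.06. The median levels of these lists ran from -4.46 to 0.60 on the 2 arrays. Loess could therefore change them little, and their staying the same is no check on them. Duct markers had a median of -1.18 before and after loess over 13 genes, with 1 at least 2-fold higher at ZT0 and 8 at ZT8, and after loess 1 and 9. The keratin genes Krt7, Krt19, Krt18 and Krt8 were 5.01-fold, 4.65-fold, 2.67-fold and 2.26-fold higher at ZT8, and Epcam, an epithelial adhesion gene, 5.18-fold. Krt19 was at -2.19 at ZT0 and 0.03 at ZT8, beside 1.84 (ZT4), -3.38 (ZT12), -1.26 (ZT16) and -2.34 (ZT20), so ZT0 was not its lowest array. Sox9, the duct transcription factor, went the other way and was 2.09-fold higher at ZT0. Of the 13 duct markers, ZT0 was the lowest of the 6 arrays in 0.

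Endothelial markers had a median of -1.07, and of -1.06 after loess, over 15 genes, with 2 at least 2-fold higher at ZT0 and 8 at ZT8, and after loess 1 and 8. Eng, a co-receptor for TGF-beta, was at -2.58 at ZT0 and 0.01 at ZT8, 6.01-fold apart. Pecam1, Tek, Tie1, Plvap, Emcn and Vwf, genes of vessel receptors and adhesion proteins, were 2.10-fold to 2.74-fold higher at ZT8. Kdr, the main VEGF receptor, was instead 2.24-fold higher at ZT0 on its brighter probe (0.84 in log2 after loess), with -0.56 on the other, and Flt1 and Cdh5 were 1.41-fold and 1.81-fold higher at ZT0. The endothelial genes thus did not move as 1 block, although more were lower at ZT0.

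Red blood cell markers had a median of -2.23, and of -2.14 after loess. Of 12 listed genes 7 were kept, and 6 of these were at least 2-fold higher at ZT8. The beta-globin gene Hbb-b2 was at -1.92 at ZT0 and 0.97 at ZT8, beside 1.34 (ZT4), 0.27 (ZT12), -0.01 (ZT16) and 0.04 (ZT20). Alas2, the haem synthesis enzyme of red cell precursors, was 5.03-fold higher at ZT8, and the alpha-globin gene Hba-a1 2.65-fold. Hbb-bt was the exception, with a difference of 0.02. ZT0 was the lowest of the 6 arrays in 5 of the 7 genes, and each gene has 1 probe. Globin genes are near-identical copies that probes may not separate. Cells and blood carried over from the tissue were not measured apart, and their part in these differences was not tested.

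**Figure D5:**
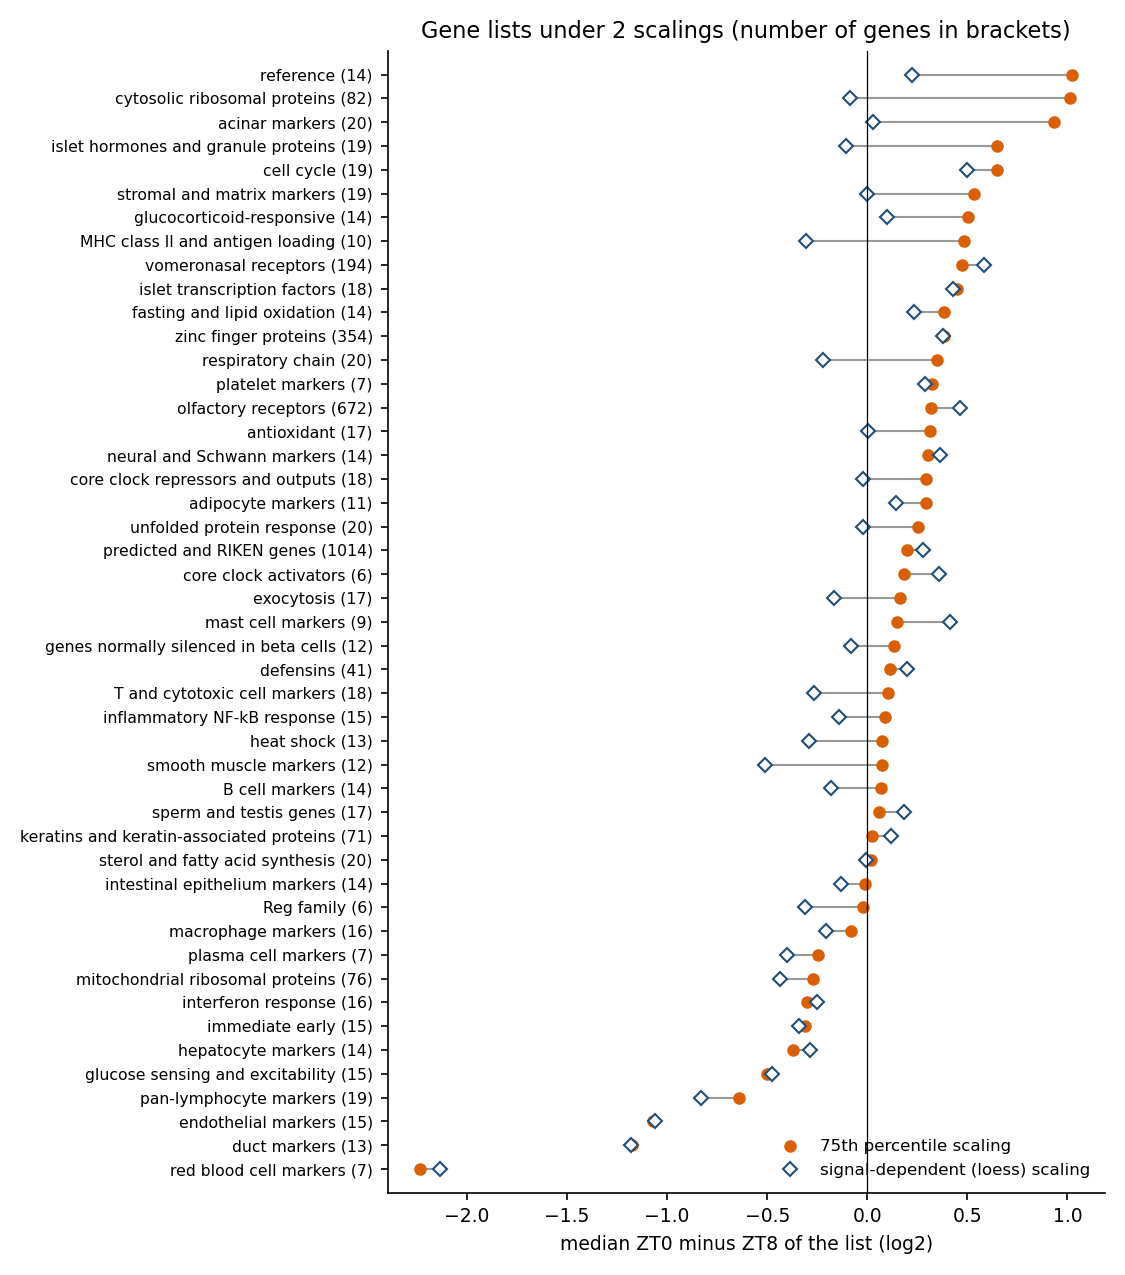
Median ZT0 minus ZT8 difference (log2) of each gene list with at least 6 genes kept (number in brackets), with the 75th percentile scaling (orange) and with a scaling that depends on signal (open diamonds, loess). The reference, ribosomal, acinar and hormone lists, at 1.02, 1.01, 0.93 and 0.65 before, lie at 0.22, -0.09, 0.03 and -0.11 after loess. Duct, endothelial and red blood cell markers, at levels where loess could change little, lie at -1.18, -1.06 and -2.14 after it.

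The immune lists did not share a direction. Pan-lymphocyte markers had a median of -0.64, and of -0.83 after loess, over 19 genes, with 1 at least 2-fold higher at ZT0 and 5 at ZT8, and after loess 0 and 9. Grap, an adaptor, and Gimap6, a lymphocyte GTPase, were 6.08-fold and 5.85-fold higher at ZT8, while Ltb and Ikzf1 were 1.03-fold and 1.05-fold apart. B cell markers had a median of 0.07 over 14 genes and T and cytotoxic cell markers one of 0.10 over 18, which turned to -0.18 and -0.27 after loess. Cd3d, a chain of the T cell receptor complex, was at 1.04 at ZT0 and 2.76 at ZT8, whereas Cd8b1 was at 0.89 and -0.72. Macrophage markers had a median of -0.08, and of -0.21 after loess, over 16 genes, with 3 higher at ZT0 and 6 at ZT8, and after loess 2 and 6. Genes of MHC class II had a median of 0.48 over 10 genes that turned to -0.31 after loess, with 5 and 4 at least 2-fold higher at ZT0 and at ZT8 at first and 2 and 4 after it. Plasma cell markers had a median of -0.24, and of -0.40 after loess, over 7 genes. Mast cell markers had one of 0.15, and of 0.41 after loess, over 9 genes.

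Cell cycle genes had a median of 0.65, and of 0.50 after loess, over 19 genes. Of these, 4 (21.1%) were at least 2-fold higher at ZT0 and 1 (5.26%) at ZT8, beside 21.0% and 18.1% of all genes. The share higher at ZT0 was thus near that of all genes. After loess the counts were 4 and 2. Pcna and Mcm2, which act at the replication fork, were 3.31-fold and 2.94-fold higher at ZT0. Cdk1, the mitotic kinase, was 2.91-fold higher, with 0.84 and 1.54 on its probes, which were not all detected on both arrays. Top2a, a topoisomerase of dividing cells, was 2.25-fold higher at ZT8. Of the 4 genes of this list with several probes, 0 had all of them 2-fold apart in 1 direction. Mki67, the usual mark of dividing cells, was at 1.14 and 1.09.

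Stress and metabolic genes spread to both sides. Genes of the unfolded protein response had a median of 0.25 over 20 genes that turned to -0.02 after loess, with 7 higher at ZT0 and 5 at ZT8, and after loess 3 and 6. Pdia6, an ER disulfide isomerase, and Ddit3, a stress transcription factor, marked the 2 sides with 4.86-fold and 4.02-fold. Glucocorticoid-responsive genes had a median of 0.50 over 14 genes and of 0.10 after loess, with 3 higher at ZT0 at first and 0 after it, and 1 at ZT8 in both. The first 3 were 21.4% of the list, beside 21.0% of all genes. Sgk1, a kinase gene switched on by the hormone, was 2.20-fold higher at ZT0, but the difference was 0.84 after loess, under 2-fold. Heat shock genes had a median of 0.08 over 13 and inflammatory genes one of 0.09 over 15, which turned to -0.29 and -0.14 after loess, and immediate early genes had -0.31 over 15. Genes of fasting and lipid oxidation had 0.38 over 14, where Angptl4, an inhibitor of lipoprotein lipase, was 6.23-fold higher at ZT0 and Ucp2, a mitochondrial carrier, 5.46-fold higher at ZT8. Angptl4 was at 1.97 at ZT0 and -0.67 at ZT8, beside 3.94 (ZT4), 1.89 (ZT12), -3.22 (ZT16) and -1.40 (ZT20). Sterol and fatty acid synthesis genes had 0.02 over 20, which turned to -0.01, and respiratory chain genes 0.35 over 20, which turned to -0.22 after loess. Of the respiratory chain genes, 7 were at least 2-fold higher at ZT0 and 4 at ZT8, and after loess 0 and 4. ZT8 was the lowest array in 13 of these 20 and ZT0 in 4, beside 2853 and 5457 of all 27323 genes kept. Mitochondrial ribosomal protein genes had -0.27 over 76, and ZT0 was the lowest array in 40 of them, beside 5457 of all 27323 genes kept.

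Large gene families were read against the 17.8% and 16.6% of all genes detected on both arrays. Olfactory receptor genes, of which 429 were detected on both arrays, were at least 2-fold higher at ZT0 in 96 (22.4%) and at ZT8 in 92 (21.4%), with a median of 0.07. Vomeronasal receptor genes, 154 detected on both, were higher at ZT0 in 38 (24.7%) and at ZT8 in 22 (14.3%), with a median of 0.39. Zinc finger genes were higher at ZT0 in 71 (20.8%) of 342 and at ZT8 in 24 (7.02%), with a median of 0.37. Predicted and RIKEN genes were higher at ZT0 in 160 (19.3%) of 829 and at ZT8 in 128 (15.4%). Olfactory and vomeronasal receptors are known from sensory neurons, and their signal on these arrays was not tested against another method.

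The identifier series of the probes differed too. Probes whose identifier starts with A_55 had a median difference of 0.16, and 296 of 17508 detected on both arrays were at least 8-fold higher at ZT0 (1.69%). Probes starting with A_51 had a median of -0.20 and 22 of 5776 (0.381%), and those starting with A_52 a median of -0.16 and 20 of 3903 (0.512%). What the series of identifiers stand for is not given in the sources used here.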

How the data were processed

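Islet RNA of 6 time points was measured on 6 one-colour arrays, 1 per time point. The scanner files came from Agilent's Feature Extraction software, version 11.0.1.1 per the file headers, run by the authors. Their processed signal is an intensity with background subtracted and detrended, and with no scaling between arrays. The deposited median spot and background intensity and other columns, flags of 0 or 1 per the file headers, were used as well. The authors' deposited value table held log2 values whose making is not given in the sources used here. Its columns had medians of 8.62 to 8.63 and all had the same maximum, 18.36, as columns set to a shared distribution by quantile normalization would. Each correlated with the log2 processed signal of its array at r of 0.9987 to 0.9998, so neither centring per gene nor another direction was seen. The table served as an alternative, which may not be separate from quantile normalization.

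Control spots and outlier spots (uneven pixels or population outliers) were removed, which lost 1493 of 39429 probes, 1489 of them on ZT0, and the remaining spots of a probe were averaged. Log2 processed signals were scaled by subtracting the 75th percentile of each array, computed in Python 3.11.15 with numpy 2.4.6 and pandas 2.3.3. Loess used statsmodels 0.14.6 with a span of 0.3, and normexp used limma 3.58.1 in R 4.3.3 with an offset of 50. A gene took its probe with the highest mean of the 2 arrays. RefSeq names (GRCm38.p6), matched by accession without versions, gave a symbol to 27234 probes (69.1%). Saturation was flagged on 0 spots. Bounds used the lowest signal among detected probes of the other array. The number of arrays limits the precision. The code that ranks differences was tested on simulated data.

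Named genes were the 10 furthest apart in each direction among those detected on both arrays, the 10 in each direction with the largest smallest difference over 2 or more probes, all measured clock genes, up to 4 members of each of the other lists (the 2 highest and the 2 lowest), and the 4 largest bounds in each direction. Some genes that the rule names are not reported here. Duct, endothelial, red blood cell, hormone, glucose sensing and lymphocyte genes beyond these were chosen after their values were seen. The lists and the time points compared were chosen with earlier results of these data known. Of 49 gene lists, 48 had members kept. Promoters were those of RefSeq, GRCm38.p6.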

Additional observations from a re-analysis of the deposited data

How the results depend on the processing

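Changes were set against 0.70 (log2), the median SD over the probes of a gene, since there were no replicates. This SD covers probes on the same 2 arrays and not a spread between mice or pools. Of 1958 values of named genes under the alternatives, 1792 moved by less than 0.70, 148 by more, and 18 that were at least 2-fold in the report reversed. A further 29, under 2-fold in the report, also changed sign. Of 432 list medians, 416 moved by less than this SD, 13 by more, and 3 that were at least 2-fold reversed. A further 72 under 2-fold changed sign. Some alternatives could hardly move a value, so these totals overstate how far the values were put to a test. Scaling by the array median shifts all genes alike, and a looser or stricter detection filter mostly keeps the same probe values. For named genes these moved 0, 0 and 1, with 221, 221 and 202 the same. Normexp moved 42, loess 28, and the median over probes 28 with 4 reversed. No paired analysis was possible because each time point has 1 array, and no replicate could be left out.

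Genes higher at ZT0 and at ZT8 numbered 3512 and 2884 with normexp on the median spot signal, and 1769 and 1441 at 4-fold. Alternatives chosen after seeing the data gave 1366 and 2229 with A_51 and A_52 probes alone, 4348 and 3092 with A_55 probes alone, and 101 and 137 where all of 2 or more probes had to be 2-fold apart. The share of calls that were higher at ZT0 was 53.8%, and it rose to 58.4% with A_55 probes and 56.9% with the median of each array as scale, and fell to 38.0% with A_51 and A_52 probes and 44.0% (4064 and 5165 genes) in the authors' value table. The median of all genes was 0.26, 0.20, -0.15 and -0.06 in these 4 settings.

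With quantile normalization, loess and the authors' value table, in that order, medians were -0.26, -0.11 and -0.34 for islet hormones, 0.11, 0.22 and 0.10 for reference genes, -0.046, 0.030 and -0.13 for acinar markers, -0.38, -0.31 and -0.63 for MHC class II, and -0.29, -0.088 and -0.30 for ribosomal proteins. Red blood cell markers gave -1.48 with normexp. By construction, quantile and loess scaling remove a dependence on signal. The authors' value table may do so too, since its columns share a maximum, so its values are no separate check on those of quantile normalization.

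Differences that turned with quantile normalization and in the authors' value table were -0.18 and -0.20 for Coro1a, -0.040 and -0.038 for Hsp90ab1, -0.045 and -0.074 for Jchain, -0.035 and -0.038 for Reg1, and -0.14 and -0.13 for Sparc. Keeping outlier spots and the authors' value table gave 2.59 and 1.61 for Cd4, and 1.68 and 1.82 for Tbata. The median over the probes of a gene gave -0.021 for Acly, -0.72 for Fga, -3.27 for Itgam and 0.44 for Pax6. Their causes were not tested.

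E1A spike-in spots lay at the level of negative controls (4.09 and 3.70 in signal at ZT0, 7.79 and 7.16 at ZT8), so they gave no check of scale. The bright corner control spots had a median signal of 652254 at ZT0 and 102954 at ZT8. On the other arrays it was 19685 (ZT4), 28320 (ZT12), 110859 (ZT16) and 107536 (ZT20). Whether this difference bears on the bright genes was not tested.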
